A study of Mus musculus with 2 samples.

Results

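Serpins are a family of protease inhibitors that trap their target with an exposed loop, and the plasminogen activators Plat and Plau are among the proteases they control. The genes described here are those whose platform symbol names a serpin, together with Plat, Plau, the urokinase receptor Plaur and the secreted proteases Htra1 and Htra3. Serpinh1, a collagen chaperone of the endoplasmic reticulum, was left out. The rule used names and no measured value, and it gave 43 genes read by 61 probe sets, of 18193 named genes and 45101 probe sets in all. Another 3 probe sets were annotated to several genes that include a serpin and were not used. A further 25 genes whose names fit the rule were not analysed here.

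The cells were superficial zone chondrocytes, the flattened cells at the surface of articular cartilage, taken from the femur and tibia of ICR mice 4 days after birth. The labels name no genetic change, and both cultures were grown with serum. The control culture (n = 1) received no retinoic acid, and the other (n = 1) received 10 μM retinoic acid, a vitamin A metabolite that acts through nuclear receptors, for 24 h. Each RNA was read on 1 Affymetrix Mouse Genome array. With 1 array per group there is no replicate error, no test was run, and every fold compares these 2 arrays; the labels do not say how many animals each culture pooled or whether both came from 1 preparation.

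The plasminogen system turns the circulating zymogen plasminogen into plasmin, a broad protease that degrades fibrin and can activate matrix metalloproteinases. Plat and Plau cut plasminogen, Plaur holds Plau at the cell surface, and serpins such as Serpinf2 and Serpini1 inhibit plasmin or its activators. Serpins of clade B lack a classical secretion signal and act mostly inside cells, where they block granzymes, cathepsins and neutrophil proteases. The HtrA proteases cut matrix proteins and bind members of the TGF-β family.

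Signals are MAS5 signals, a linear brightness of each probe set. A probe set counts as measured where it lies above the median of all probe sets on that array, which was 26.5 in control and 29.7 with retinoic acid, and lower values were raised to that median. A gene is read by its brightest probe set. Of the 43 genes, 15 (34.9%) were measured on at least 1 array, against 65.3% of all named genes. Of these 15, 12 were above the median on both arrays and have a fold. The other 3, Plau, Serpinb6b and Serpina3n, were above it on 1 array only, so that they had to differ, and they have a bound, written "at least". Brightness differs between probes, so levels are compared between arrays and not between genes.

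The measured genes went both ways. Past 2-fold were 2 clade B serpins upward and 2 downward, and 1 gene in each other group: Plat, Htra3 and Serpina3n. Plat, which encodes tissue plasminogen activator, was 4.06-fold higher with retinoic acid, Serpinb9, an inhibitor of granzyme B, 3.34-fold higher, Htra3 2.33-fold higher, and Serpinb6b at least 5.43-fold higher. Serpina3n, a secreted relative of human antichymotrypsin, was at least 6.05-fold lower, Serpinb1a, an inhibitor of neutrophil proteases, 3.35-fold lower, and Serpinb6e 2.81-fold lower. In all, 4 of the 15 (26.7%) were higher by 2-fold or more, where 6.54% of the 11884 genes measured on the array were, and 3 (20.0%) were lower by 2-fold or more, where 4.34% of all measured genes were. Without the 3 bounds the counts were 3 higher and 2 lower of 12, where 6.03% and 4.03% of the 10722 genes above the median on both arrays were. The median log2 ratio (retinoic acid over control) stood at 0.65 for the 15 genes and 0.017 for all measured genes. Without the 3 bounds it was 0.38 for the 12 genes and 0.014 for all genes above the median on both arrays. With the floor at the 30th percentile of signal it was −0.026 over the 27 members measured and 0.011 over all measured genes.

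**Figure D1:**
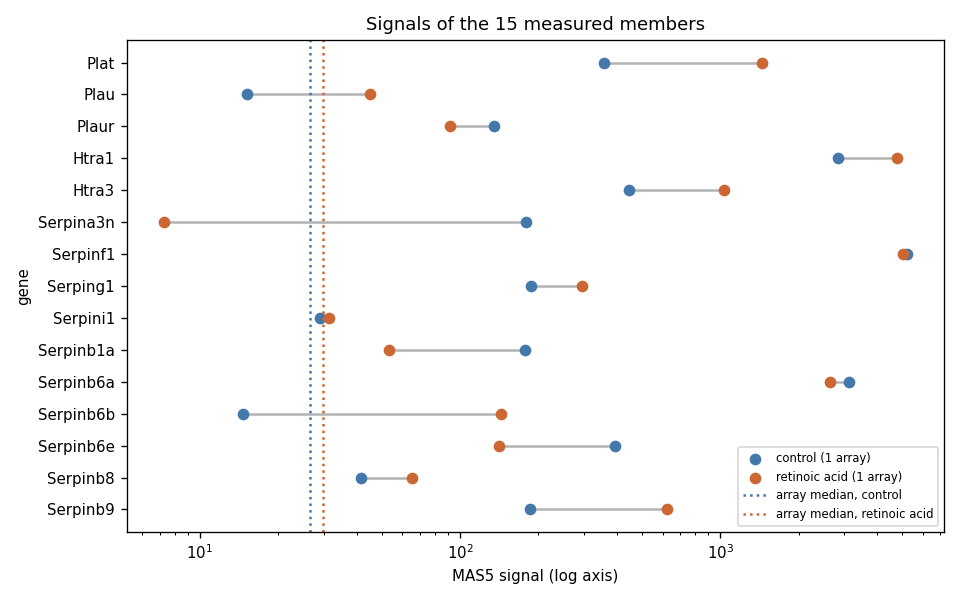
MAS5 signal (log axis) of each of the 15 measured genes on the control array (blue) and the retinoic acid array (orange), 1 array per group, with dotted lines at the array medians of 26.5 and 29.7. Plau and Serpinb6b lie below the line in control, Serpina3n lies below it with retinoic acid, and Serpini1 sits just above both lines.

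Promoter windows, from 250 bases before to 50 after a transcript start, are printed for the 5 genes past 2-fold that have one in the RefSeq table (build GRCm38.p6), to show side by side the sequence at genes that went opposite ways. Each is written 5′ to 3′ in the direction of the gene, with capitals for the retinoid receptor half-sites AGGTCA and GGGTCA, the GC box GGGCGG and the CCAAT box, on either strand.
Serpinb6b, chr13:32965011-32965310, plus strand: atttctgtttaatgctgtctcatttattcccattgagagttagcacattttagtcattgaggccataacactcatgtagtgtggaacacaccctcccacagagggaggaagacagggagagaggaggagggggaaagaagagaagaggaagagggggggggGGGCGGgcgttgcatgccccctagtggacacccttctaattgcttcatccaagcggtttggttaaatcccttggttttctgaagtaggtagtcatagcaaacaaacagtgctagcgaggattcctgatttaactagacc
Serpinb9, chr13:33004291-33004590, plus strand: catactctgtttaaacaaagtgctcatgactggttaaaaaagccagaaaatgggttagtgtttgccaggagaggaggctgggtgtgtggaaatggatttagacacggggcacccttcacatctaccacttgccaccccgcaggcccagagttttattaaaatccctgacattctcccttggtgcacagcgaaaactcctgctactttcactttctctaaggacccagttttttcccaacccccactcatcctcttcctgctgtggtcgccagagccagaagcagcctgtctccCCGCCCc
Htra3, chr5:35679731-35680030, minus strand: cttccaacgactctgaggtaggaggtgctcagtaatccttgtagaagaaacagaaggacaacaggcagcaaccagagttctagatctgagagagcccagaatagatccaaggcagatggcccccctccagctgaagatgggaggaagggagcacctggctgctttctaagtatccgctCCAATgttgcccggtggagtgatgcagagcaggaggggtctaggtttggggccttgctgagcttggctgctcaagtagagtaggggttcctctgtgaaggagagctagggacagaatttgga
Serpina3n, chr12:104406458-104406757, plus strand: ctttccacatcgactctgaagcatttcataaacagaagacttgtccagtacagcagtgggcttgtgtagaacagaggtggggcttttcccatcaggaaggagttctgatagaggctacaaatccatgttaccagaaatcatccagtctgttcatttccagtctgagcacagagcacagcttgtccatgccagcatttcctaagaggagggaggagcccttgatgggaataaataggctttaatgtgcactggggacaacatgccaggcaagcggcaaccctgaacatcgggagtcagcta
Serpinb6e, chr13:33843359-33843658, minus strand: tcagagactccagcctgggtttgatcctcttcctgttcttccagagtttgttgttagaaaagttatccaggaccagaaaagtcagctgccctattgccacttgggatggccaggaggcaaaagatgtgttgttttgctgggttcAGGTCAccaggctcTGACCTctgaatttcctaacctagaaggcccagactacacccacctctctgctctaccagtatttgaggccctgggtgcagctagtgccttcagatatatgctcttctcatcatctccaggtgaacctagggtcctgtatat

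Among these windows, half-site letters are found in that of Serpinb6e, which was lower: AGGTCA begins 106 bases before the start, and its reverse complement begins 92 bases before it. The windows of Serpinb6b, Serpinb9 and Htra3, which were higher, hold no half-site. Plat, also higher, and Serpinb1a, which was lower, have no window in the RefSeq table and could not be searched. Serpinb6b has a GC box beginning 89 bases before the start, Serpinb9 has one on the other strand that begins at base 44 of the transcript, and Htra3 has a CCAAT box beginning 72 bases before it. The Serpina3n window holds none of these letters. Of the 15 measured genes 11 matched the table, with 12 windows. A half-site was in 4 of the 12 windows, at Plaur, Serpinb6e, Serpinf1 and Serpini1, and in 27.5% of all 32851 windows of the table. A GC box was in 5 of 12 against 35.7%, a CCAAT box in 5 of 12 against 37.4%, the TATA box TATAAA in 0 of 12 against 13.6%, the AP-1 site TGANTCA in 2 of 12 (Plaur and Serpinb8) against 7.81%, and the STAT site TTCNNNGAA in 1 of 12 (Serpinb6a) against 8.30%. A direct repeat of the half-site in the same orientation with a spacing of 1, 2 or 5 bases, the form that retinoid receptors bind as dimers, was in 0 of 12 against 0.198%; a half-site within such a repeat also counts as a half-site. These are matches of letters in a short window around 1 annotated start and say nothing of sites elsewhere.

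Of the activators, Plat had a signal of 356 in control and 1447 with retinoic acid. It was the only member of the activator and receptor group past 2-fold. A second Plat probe set was below the median on both arrays (17.7 and 15.5), and when the 2 probe sets were combined by their median the log2 ratio was 0.92 in place of 2.02. Plau, the urokinase-type activator, had a signal of 15.1 in control, below the median, and 45.1 with retinoic acid. It was at least 1.70-fold higher, and its log2 ratio was 1.57 with the floor at the 30th percentile. The second Plau probe set was below the median on both arrays (4.66 and 28.8). Plaur, the receptor that binds urokinase, went the other way, from 135 to 91.2, or 1.48-fold lower. Both activators had the higher signal with retinoic acid and the receptor the lower one, but only Plat was past 2-fold. With the floor at the 70th percentile Plau was not measured and the log2 ratio of Plaur was −0.08.

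The HtrA proteases Htra1 and Htra3 were both brighter with retinoic acid. Htra3 had a signal of 444 in control and 1036 with retinoic acid. A second Htra3 probe set read 51.8 and 106 (2.05-fold higher), and the last one, close to the floor, read 34.9 and 34.2 (1.02-fold lower). Htra1, which is found in cartilage matrix, had signals of 2833 and 4764 (1.68-fold higher), and its other probe set 2151 and 3939 (1.83-fold higher). Both Htra1 probe sets therefore stayed short of 2-fold. The paralog Htra4, which the rule does not take in, went from 48.3 to 225 (4.66-fold higher), and Htra2, a protease of mitochondria, from 400.0 to 405 (1.01-fold higher).

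**Figure D2:**
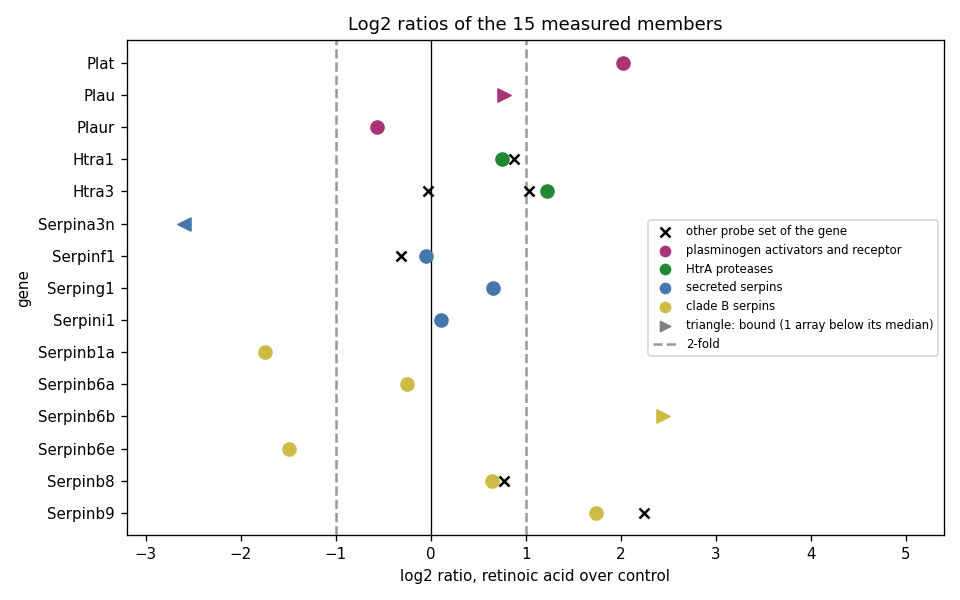
Log2 ratio of retinoic acid over control for the 15 measured genes, coloured by group, with crosses for other probe sets of the same gene and dashed lines at 2-fold. Triangles are bounds from a gene below the median on 1 array; Plat, Serpinb9, Htra3 and Serpinb6b lie right of the 2-fold line and Serpina3n, Serpinb1a and Serpinb6e left of it.

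Among the secreted serpins 4 of 20 genes were measured. Serpina3n, known as an acute phase gene that inflammation raises in many tissues, had a signal of 180 in control and 7.27 with retinoic acid on its single probe set. The retinoic acid signal is below the median of that array, so the fold of at least 6.05 is set by the floor; the log2 ratio was −4.63 with no floor and −0.49 with the floor at the 70th percentile. Serpinf1, which encodes the anti-angiogenic protein PEDF and does not inhibit proteases, had signals of 5201 and 5015, or 1.04-fold lower. Its second probe set read 2851 and 2286, or 1.25-fold lower. Serpinf1 thus differed by less between the arrays than the probe sets of a gene usually do among themselves (an SD of 0.30 in log2 ratio), while its second probe set was just past that. Serping1, the C1 inhibitor that controls complement and the contact system, went from 187 to 293 (1.57-fold higher). Serpini1, or neuroserpin, an inhibitor of tissue plasminogen activator, was barely above the median on both arrays, at 29.0 and 31.3 (1.08-fold higher).

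The other 16 secreted serpins were at or below the median on both arrays, with no probe set used for them above 22.4. They include Serpinf2, the main inhibitor of plasmin, at 15.4 and 22.4, antithrombin, Serpinc1, at 17.8 and 11.7, heparin cofactor II, Serpind1, at 3.91 and 22.4, and Serpina5, the protein C inhibitor, at 4.40 and 5.97. The rest are Serpina1b, Serpina1c, Serpina1f, Serpina3a, Serpina3i, Serpina6, Serpina7, Serpina9, Serpina10, Serpina11, Serpina12 and Serpini2. Many of these genes are expressed mainly in liver. Signals this low have no usable ratio.

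Of 18 clade B serpins 6 were measured, with 3 higher and 3 lower by any amount. Of all 11884 measured genes 6130 were higher and 5754 lower by any amount, so the split was near that of the array. Serpinb6b had a signal of 14.6 in control and 144 with retinoic acid. It was above the median only with retinoic acid, and its log2 ratio of 2.44 was 0.25 with the floor at the 70th percentile and 3.30 with no floor. Serpinb9 had a signal of 186 in control and 621 with retinoic acid, and its dimmer probe set 26.7 and 126 (4.73-fold higher), so that both were past 2-fold. Serpinb8, an inhibitor of furin-like proteases, went from 41.7 to 65.2 (1.56-fold higher), and its second probe set was at least 1.70-fold higher.

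Serpinb1a read 178 in control and 53.1 with retinoic acid. Its second probe set was below the median on both arrays, and with the floor at the 70th percentile its log2 ratio was −0.48 in place of −1.74. Serpinb6e read 395 in control and 141 with retinoic acid. Its only probe set is of a type (ending in _x_at) whose probes can match other transcripts, so its signal may include paralogs. Serpinb6a, the paralog with an inhibitor function in the cytosol of many cells, read 3131 and 2628 (1.19-fold lower). The 12 clade B genes at or below the median on both arrays were Serpinb1b, Serpinb2, Serpinb3a, Serpinb5, Serpinb6c, Serpinb7, Serpinb9b, Serpinb9c, Serpinb9d, Serpinb9g, Serpinb11 and Serpinb12, with no signal of the probe sets used above 24.4. Serpinb2, the intracellular inhibitor of urokinase known as PAI-2, read 4.40 and 6.83.

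**Figure D3:**
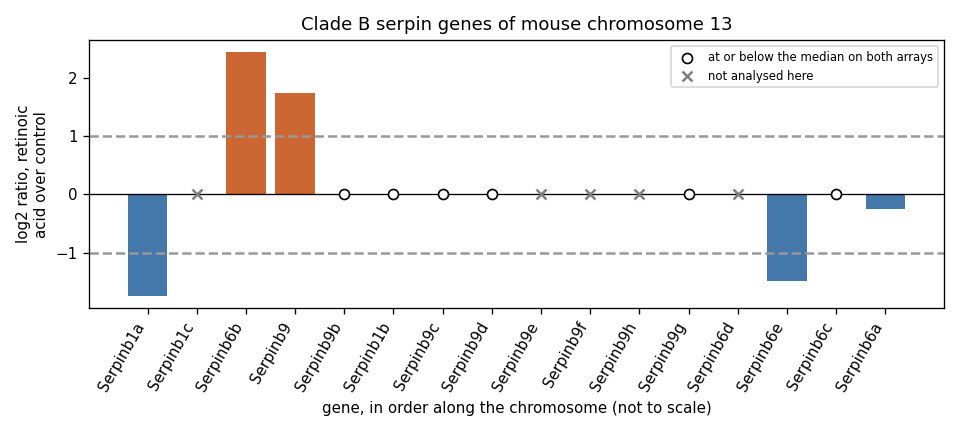
Log2 ratio of retinoic acid over control (bars) for the 16 clade B serpin genes of mouse chromosome 13, in their order along the chromosome and not to scale, with circles for genes at or below the median on both arrays and crosses for genes not analysed here. The bar of Serpinb6b is a lower bound; it and its neighbour Serpinb9 point up, and Serpinb1a, Serpinb6e and Serpinb6a point down.

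Of the 6 measured clade B genes 5 lie in a cluster of 16 on chromosome 13, in the gene table of assembly GRCm38.p6. Serpinb6b and Serpinb9, next to each other in the order of clade B genes there, were both higher. Serpinb1a, at the start of the order, and Serpinb6e and Serpinb6a, near its end, were lower. For Serpinb6a the difference was 1.19-fold, a log2 ratio of −0.25, which is within the SD of 0.30 between probe sets of a gene. Between Serpinb9 and Serpinb6e lie 9 further genes, of which 5 were at or below the median on both arrays and 4 were not analysed here. The cluster thus held genes of both signs, and Serpinb6b and Serpinb9 were its only pair of measured genes with no other clade B gene between them.

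**Figure D4:**
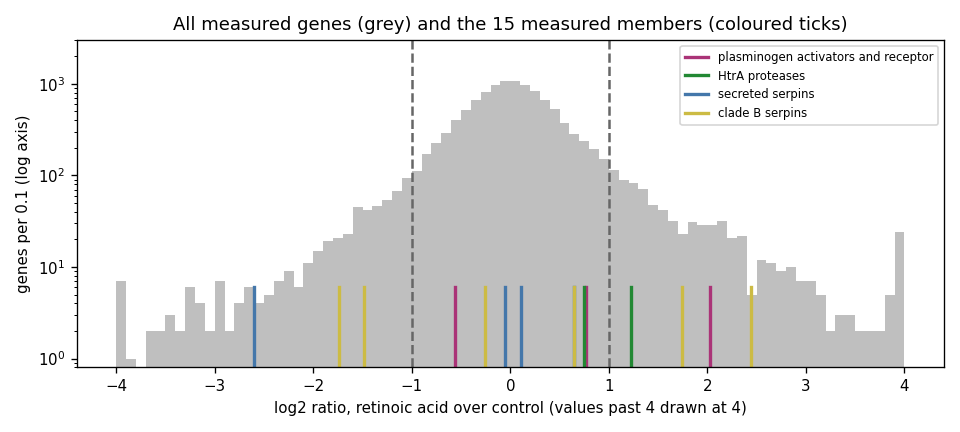
Number of measured genes (log axis) per 0.1 of log2 ratio of retinoic acid over control, for all 11884 measured genes (grey), with coloured ticks at the 15 measured serpin and plasminogen system genes and dashed lines at 2-fold. Of the 15 ticks, 4 lie right of the upper line and 3 left of the lower line.

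Partners of these proteins were read from a list of 76 genes: substrates, receptors, clotting factors, target proteases, other inhibitors, and some relatives and further proteins. For Prss35, Nrp1, Htra4, Fap, Dpp4, Masp1, Spint2 and Pdgfc, all higher by 2-fold or more, no link to the serpins or the plasminogen system is given here. The platform table names 72 of the listed genes, of which 41 were measured. With retinoic acid 12 of the 41 (29.3%) were higher by 2-fold or more and 2 (4.9%) were lower by as much. The median log2 ratio of the 41 was 0.43. The genes with no link given are among the 12, so this share describes the list and not known partners. The shares over all measured genes were 6.54% higher and 4.34% lower, so that the share of lower partners was near that of the array. The substrate itself, Plg, was below the median on both arrays at 11.4 and 11.9, as was Vtn, a serum and matrix protein that binds the urokinase receptor, at 5.27 and 14.2. The list was put together with earlier results of these arrays known, so its share is no independent evidence.

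Among surface receptors and binding proteins, Mrc2, a collagen receptor that associates with the urokinase receptor, read 1221 in control and 4909 with retinoic acid (4.02-fold higher). Lrp1, which clears complexes of proteases with serpins, read 1688 and 3433 (2.03-fold higher). Anxa2 and S100a10, which together bind plasminogen at the cell surface, stayed within 2-fold: Anxa2 read 5965 and 4368 (1.37-fold lower) and S100a10 2647 and 3077 (1.16-fold higher). Nrp1, a receptor for semaphorins and VEGF, read 789 and 2996 (3.80-fold higher).

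In the thrombin branch, Thbd, which encodes thrombomodulin, the receptor that turns thrombin toward protein C, read 1018 in control and 5027 with retinoic acid (4.94-fold higher). F2r, the thrombin receptor PAR1, read 1845 and 4166 (2.26-fold higher). F3, tissue factor, which starts clotting, read 253 and 105 (2.40-fold lower). Thrombomodulin and tissue factor had opposite signs, but tissue factor was picked after its value was seen. Other measured clotting genes of the list stayed within 2-fold. Among them, Tfpi read 151 and 150, Procr 165 and 130, Pros1 628 and 546, and F5 52.9 and 58.7. F2, F7, F10 and Proc were below the median on both arrays.

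Of other serine proteases and inhibitors, Prss35, a secreted protease-like protein, read 163 in control and 3209 with retinoic acid (19.6-fold higher). Fap, a surface protease of fibroblasts, read 397 and 2387 (6.01-fold higher), and its relative Dpp4 read 47.6 and 187 (3.94-fold higher). Slpi, an inhibitor of neutrophil elastase outside the serpin family, read 967 and 253 (3.83-fold lower). The remaining 3 partners past 2-fold, Masp1, Spint2 and Pdgfc, were between 2.31-fold and 2.56-fold higher.

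**Figure D5:**
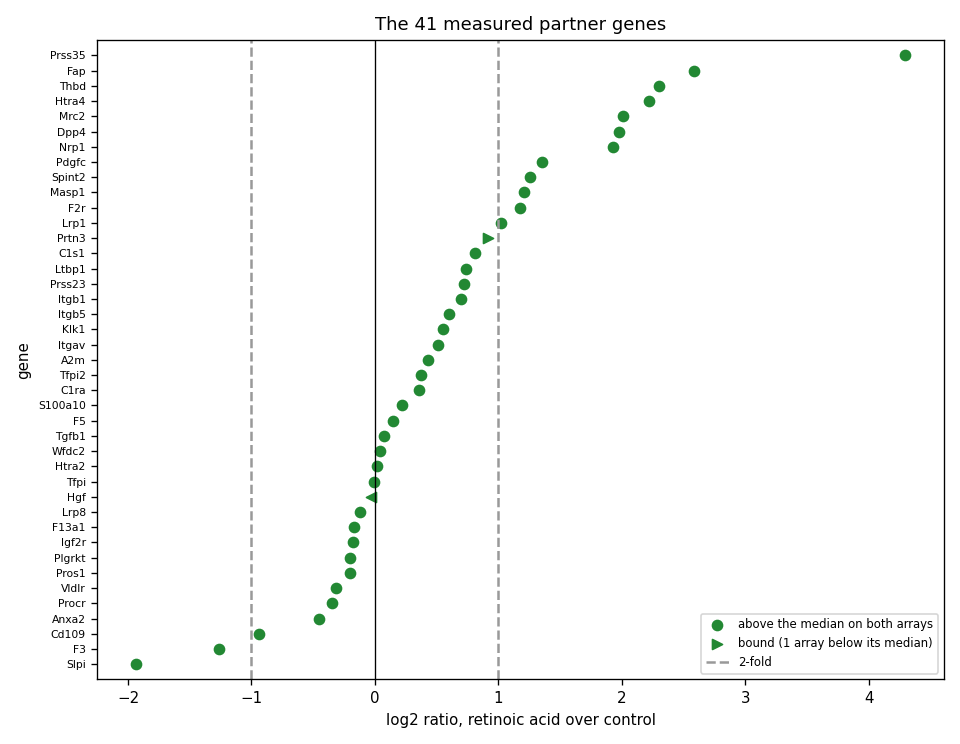
Log2 ratio of retinoic acid over control for the 41 measured partner genes, sorted, with triangles for bounds and dashed lines at 2-fold. Prss35 lies farthest right and Slpi farthest left; 12 genes lie at or right of the upper 2-fold line and 2 left of the lower one.

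Signals were read for 15 markers of superficial zone cells and chondrocytes. Of these 14 were above the median on both arrays, all but Cilp, as were 10722 of all 18193 named genes. All 6 tendon markers were also measured, so this does not test the labelled cell type. The list does not separate superficial zone cells from other chondrocytes. With retinoic acid 8 of the 14 were at least 2-fold lower. The summed signal of all 15 was 62016 in control and 32570 with retinoic acid. Several serpins and activators are also expressed by endothelial or immune cells. Of 10 endothelial markers 4 were measured (summed signal 169.5 and 264.6 over all 10). Only Cldn5 was at least 2-fold higher, at 22.7 in control, below the median, and 108 with retinoic acid. Pecam1, Cdh5, Tie1, Tek, Emcn and Vwf were below the median on both arrays. Of 11 macrophage and myeloid markers 7 were measured (summed signal 633 and 709), none past 2-fold, and Ptprc, Aif1, Itgam and Tyrobp were below the median on both arrays. Smooth muscle and pericyte markers had 2 of 7 measured genes past 2-fold upward and 2 downward (summed signal of all 9, 4955 and 6096), with Myh11 and Mcam below the median on both arrays. Osteoblast markers had 0 of 5 higher and 2 lower (365 and 279), and tendon markers 0 of 6 higher and 3 lower (10955 and 5695). Another 3 listed osteoblast markers, Bglap, Runx2 and Spp1, were not analysed here. By 2-fold or more, 6.54% of all measured genes were higher and 4.34% lower. The summed signals weigh bright genes most and include genes below the median. The part of any of these in the serpin and plasminogen values was not tested. In RNA from a whole culture, fewer cells of a type and less RNA per cell cannot be told apart.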

How the data were processed

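The values deposited by the authors are intensities, linear MAS5 signals per probe set on 1 array per culture; MAS5 is named in the submitters' processing notes, while its version, target and presence calls are not stated in those notes. They were used unscaled. Names came from the platform annotation of probe sets (34945 with 1 symbol; 932 with several were left out), and all 43 members matched the gene table by Entrez identifier. The floor, the brightest probe set per gene and the bounds are described above. Log2 ratios always run from control to retinoic acid. The text names every measured member, the 8 partners with the largest absolute ratio and 8 set partners. Outside that rule, Htra2, Masp1, Spint2, Pdgfc and the clotting genes F2, F3, F5, F7, F10, Proc, Procr, Pros1 and Tfpi were added after their values were seen. Members, lists and rules were chosen with earlier results of these data known. The motifs were chosen after the promoter table was seen. Scatter of the log2 ratio among a gene's own probe sets, as a pooled SD over 4993 genes, was 0.30 and holds no variation between cultures. Having 2 arrays limits the precision. Counting was tested on simulated data with changes planted only in bright genes above the median on both arrays. That test does not cover bounds or dim genes. Python 3.11.15, numpy 2.4.6, pandas 2.3.3 and matplotlib 3.10.9 were used.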

Additional observations from a re-analysis of the deposited data

How the results depend on the processing

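The counts of genes past 2-fold depended on the floor. With no floor, 13 members were at least 2-fold higher and 7 lower of 43, while 2137 and 2106 of all 18193 genes were. The same setting gave 19 partners higher and 11 lower, out of all 72 on the platform and not the 41 used above. Without a floor these counts include ratios of very low signals. The other 3 floors and the offset kept 3 or 4 of the 4 higher members. With the floor at the 70th percentile 3 of 12 members were at least 2-fold higher, and 1 was lower, since Serpina3n and Serpinb1a dropped out. Of all 8443 genes measured then, 449 were higher and 260 lower. The member median was 0.096 and that of all genes 0.013. At this floor 9 partners were higher and 1 lower, and the number of partners measured is not given here. With the floor at the 30th percentile Plau and Serpind1 joined the higher members, giving 6 higher and 3 lower of 27. Of all 15117 genes measured then, 1101 were higher and 832 lower. The member median was −0.026 and that of all genes 0.011. Setting the median log2 ratio to 0, quantile normalization, the common floor and the offset left the same 4 higher and 3 lower members. The median over probe sets dropped Plat, the unique probe sets dropped Serpinb6e, and genes above the floor on both arrays left out Serpinb6b and Serpina3n. Of 140 member values under another setting, 125 moved by less than 0.30, 15 by more and 0 reversed among those past 2-fold. Many of these values could not move. A gene above the median on both arrays keeps its ratio under a lower floor or none, and setting the median to 0 shifts all genes equally. The tally is therefore no measure of robustness. No paired analysis was possible because each group has 1 array, and leaving out an array leaves no comparison. The signals of Plau, Serpini1 and Serpinb8 lie close to the array medians.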
